A study of Mus musculus with 12 samples.

Results

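The genes described here are 42 genes of DNA replication and S phase, taken by symbol and grouped by what their products do at the replication fork. All 42 had a probe set whose annotation gives that symbol and no other gene, out of 19937 genes measured in this way. Pcna, Slbp and Tk1 each had a pair of such probe sets, and the one with the highest mean over the 12 arrays was used. Which probe set of each pair lies at the gene's own locus is not known here, so the values of these 3 genes are uncertain, and where the dimmer probe set differs both are given. No filter on low values was applied, so all 42 were tested.

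Mouse bone marrow was cultured for 7 days with the cytokine GM-CSF at 200 ng/ml, and the dendritic cells in suspension were selected with CD11c beads to a labelled purity above 95%. There were 4 groups of 3 arrays: IL-2 knockout cells given curdlan for 6 h, wild-type cells given curdlan for 6 h, untreated IL-2 knockout cells and untreated wild-type cells. Curdlan is a beta-glucan recognised by Dectin-1, and the design asks what IL-2 signalling does in these cells. The strain is given as B6.129P2-Il2tm1Hor/J for every array, those of wild-type cells included, so genotype was read from the titles and from the label for genotype. The knockout is of the whole animal, so the marrow from which the cells grew lacked IL-2 too. Not given in the sources used here were the dose of curdlan, the age of the mice and whether replicates were separate mice, and p-values then measure only the spread between these samples.

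Replication begins when the origin recognition complex, with Cdc6 and Cdt1, loads the ring-shaped MCM helicase on DNA in G1. Mcm10, Cdc45 and the GINS complex turn the loaded ring into a moving helicase, primase and the polymerases copy the strands, and the PCNA clamp, loaded by replication factor C, holds the polymerases in place. Many of these genes are transcribed around the G1/S boundary under E2F factors, so their RNA is abundant in cycling cells and low in cells that have left the cycle. Bone marrow cultures with GM-CSF are known to hold dividing precursors beside mature dendritic cells.

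Values are log2 signals, on which a difference of 1 is a doubling. Array medians lay between 6.59 and 6.64, and array pairs correlated across genes between 0.981 and 0.998. The disrupted gene Il2 gave 5.87, 5.80 and 5.63 in knockout cells with curdlan, 7.80, 7.22 and 6.74 in wild-type cells with curdlan, 6.04, 5.88 and 5.77 in untreated knockout cells and 5.56, 5.37 and 5.53 in untreated wild-type cells. It was thus higher on every curdlan-treated wild-type array than on any other. In wild-type cells it rose with curdlan by 1.77 ± 0.20 on the log2 scale (SE of the fit) with limma (adjusted p = 0.000159). Every untreated knockout array lay above every untreated wild-type one, so this probe set does not show the loss of Il2 in untreated cells. Some genes listed for dendritic cells were high in all groups, with Itgax, which encodes CD11c, between 12.86 and 13.08 and the MHC class II genes Cd74, H2-Ab1 and H2-Aa between 13.03 and 13.37. The mean of all 10 genes listed for dendritic cells was lower, at 10.43 to 10.93. The mean of 8 macrophage genes was 11.23 to 11.47 on the same arrays, so these levels alone do not tell the cell types apart. The number of arrays limits the precision of every value given here.

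Because the replication genes moved together, as described after the promoters, promoter sequences of members are shown to let the E2F letters be seen. RefSeq windows of 300 bases on GRCm38.p6 (250 before and 50 after a start) matched 34 of the 42 genes, in 39 windows. Mcm4, Gins1, Gins2, Rfc2, Pole, Prim2, Exo1 and Ccne2 were not matched. The letters TTTCCCGC, TTTCGCGC, TTTGCCGC or TTTGGCGC, on either strand, were present in 12 of the 39 windows (30.8%) and in 2.26% of all 32851 mouse windows of that length. Overlapping matches were counted separately, and the 18 matches in member windows began at positions between -185 and 39 relative to the start. The windows of members were richer in G and C (median 61.3%) than all windows (52.7%). Of 27 windows of mitosis genes, whose median was also 61.3%, 2 held the letters (7.41%).

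The sequences below are the 250 bases before the start, on the gene's strand, with matched letters in capitals. Pola1, Mcm7, Cdc6 and Mcm5 are shown as the members with the letters that had the largest curdlan effects, by mean size over both genotypes. Ung is shown as the member without the letters that had the smallest. Since the choice used the response, these sequences cannot show whether the letters go with it. They lie at chrX:93632156-93632405 (minus strand), chr5:138171884-138172133 (minus), chr11:98907901-98908150 (plus), chr8:75109259-75109508 (plus) and chr5:114130185-114130434 (plus). In Mcm5 the capitals are 2 matches that overlap. Mcm7 had 2 annotated starts, and the window with the letters is shown.
Pola1: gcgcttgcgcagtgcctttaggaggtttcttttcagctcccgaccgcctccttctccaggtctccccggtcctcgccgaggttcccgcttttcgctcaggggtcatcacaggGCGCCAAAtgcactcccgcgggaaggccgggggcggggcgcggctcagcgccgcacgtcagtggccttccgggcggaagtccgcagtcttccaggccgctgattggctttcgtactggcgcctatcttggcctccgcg
Mcm7: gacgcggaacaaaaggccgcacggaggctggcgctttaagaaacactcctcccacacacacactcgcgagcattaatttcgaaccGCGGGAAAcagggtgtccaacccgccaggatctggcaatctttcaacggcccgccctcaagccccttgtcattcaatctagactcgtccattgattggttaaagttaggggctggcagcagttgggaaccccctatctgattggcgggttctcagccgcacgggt
Cdc6: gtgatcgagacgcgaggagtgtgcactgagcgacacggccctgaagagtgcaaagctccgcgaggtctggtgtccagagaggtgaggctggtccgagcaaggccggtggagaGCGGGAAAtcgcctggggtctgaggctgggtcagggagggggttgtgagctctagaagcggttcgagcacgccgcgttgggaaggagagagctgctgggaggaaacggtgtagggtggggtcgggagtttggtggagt
Mcm5: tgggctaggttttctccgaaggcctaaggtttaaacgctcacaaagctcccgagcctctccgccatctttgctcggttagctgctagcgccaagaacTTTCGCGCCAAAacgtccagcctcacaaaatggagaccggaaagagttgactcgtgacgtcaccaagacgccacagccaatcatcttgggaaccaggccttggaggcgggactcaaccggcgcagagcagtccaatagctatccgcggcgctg
Ung: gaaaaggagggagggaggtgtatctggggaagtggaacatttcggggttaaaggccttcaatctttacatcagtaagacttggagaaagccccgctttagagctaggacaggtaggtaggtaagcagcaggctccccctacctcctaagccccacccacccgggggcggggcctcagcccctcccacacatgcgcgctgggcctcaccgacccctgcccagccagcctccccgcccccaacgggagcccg
A match is a description of letters, and the sequences do not separate the members by response. The 12 members with the letters had a median curdlan effect of -0.44 in knockout cells and -0.50 in wild-type cells, and the 22 matched members without them had -0.38 and -0.53. Rfc3 and Cdt1 held the letters and did not pass the test, while Rrm2 and Neil3, with the lowest differences of all members, did not hold them. Another pair of letters, TTTGAA or TTTAAA on either strand, known from promoters of mitotic genes, was present in 20.5% of member windows, 85.2% of 27 windows of mitosis genes and 27.6% of all windows. CCAAT, on either strand, was in 53.8% of member windows, 74.1% of windows of mitosis genes and 37.4% of all windows.

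The RNA of most replication genes was lower after 6 h of curdlan in both genotypes. In knockout cells 23 of the 42 genes fell and 0 rose at an adjusted p under 0.05 in limma, where 13.2% of all 19937 genes fell and 9.29% rose. In wild-type cells 28 fell and 0 rose, where 12.3% of all genes fell and 7.27% rose. The median curdlan effect over the 42 genes was -0.42 in knockout cells and -0.52 in wild-type cells, where the median of all genes was 0.04 and 0.02. At an unadjusted p under 0.05, 29 genes were lower in knockout cells, 34 were lower in wild-type cells and 0 were higher in either, where 7604 and 6290 of the 19937 genes passed that threshold in either direction. In these bulk samples, fewer cells in S phase and less RNA per cell cannot be told apart, and the values are relative to the rest of each array's RNA.

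The arrays themselves show the shift. For 31 of the 42 genes all 3 curdlan arrays of knockout cells lay below all 3 untreated ones, against 20.8% of all genes, and in wild-type cells this held for 35 genes, against 21% of all genes. The mean over the 42 genes was 7.83 ± 0.12 in knockout cells with curdlan, 8.19 ± 0.22 in wild-type cells with curdlan, 8.27 ± 0.18 in untreated knockout cells and 8.72 ± 0.13 in untreated wild-type cells (SD, n = 3 arrays each). Wild-type cells with curdlan (7.95 to 8.39) and untreated knockout cells (8.12 to 8.47), the neighbours in the middle of that order, overlapped, and the array of untreated wild-type cells with the lowest mean (8.61) lay above every other group. Curdlan-treated knockout arrays (7.74 to 7.96) overlapped those of wild-type cells only at replicate 1 of the wild type.

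**Figure D1:**
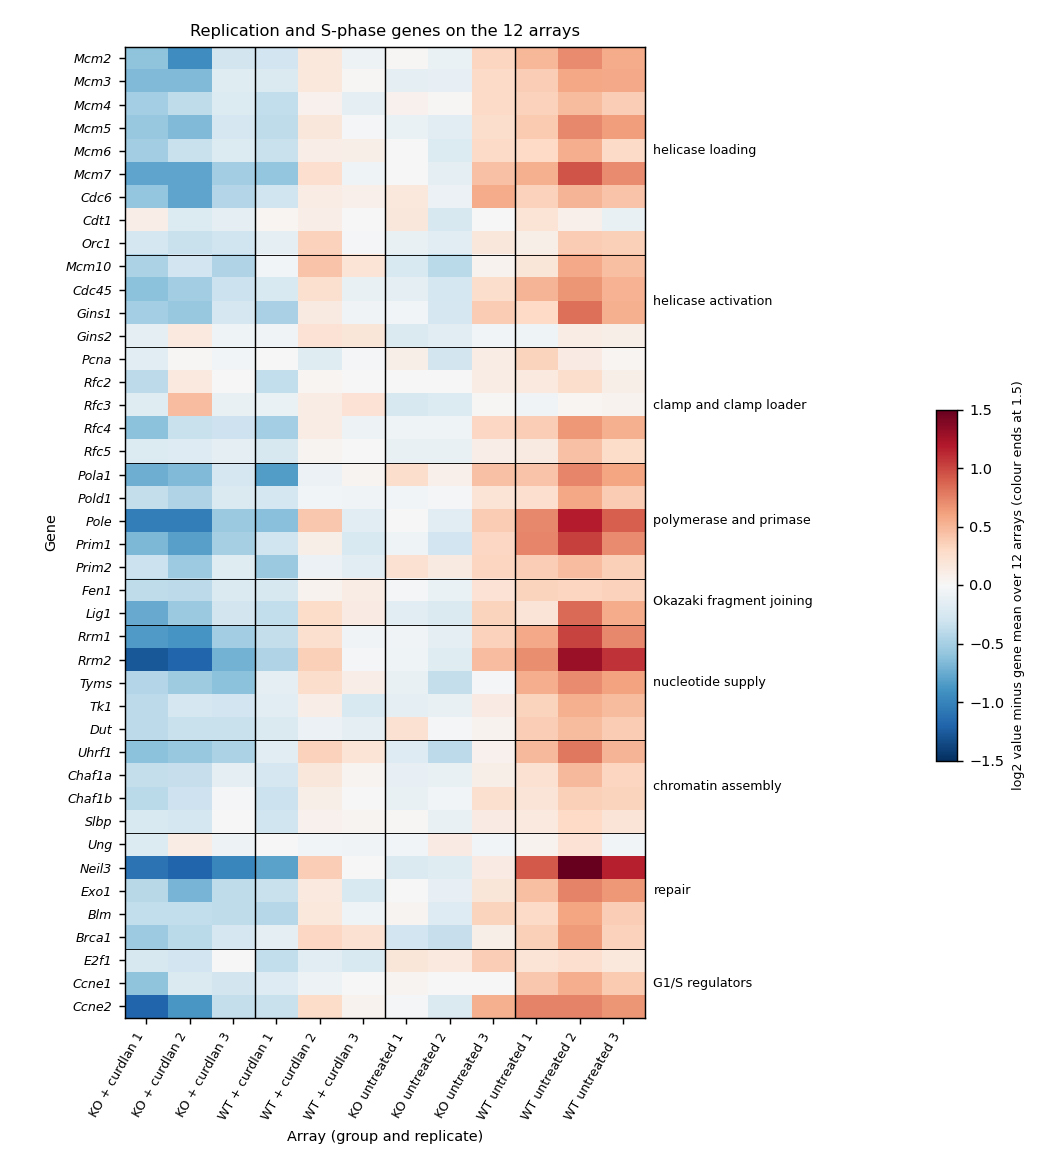
Each row is 1 of the 42 genes, ordered by role, and each column 1 of the 12 arrays; colour gives the log2 value minus the gene's mean over the 12 arrays. Knockout arrays with curdlan are mostly blue (lower) and untreated wild-type arrays mostly red (higher), with Neil3, Rrm2 and Pole the strongest, and Gins2, Rfc3, Pcna, Cdt1 and Ung near white.

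Same-numbered arrays of a genotype deviated together over all genes, so the shift can also be read within pairs. The labels do not say that a number marks a shared culture, and the pairing was inferred from these same data. Over the 42 genes alone, the deviations of the wild-type arrays numbered 3 did not correlate (-0.015), against 0.44 to 0.72 for the other same-numbered arrays of a genotype. The median of the 42 genes in curdlan minus untreated was -0.44, -0.29 and -0.50 in the 3 knockout pairs and -0.62, -0.44 and -0.43 in the 3 wild-type pairs. Of the 42 genes, 36 were below zero in all 6 pairs, and the others were Mcm10, Pcna and Rfc2 (5 pairs), Cdt1 (3 pairs), Rfc3 (2 pairs) and Gins2 (1 pair). With the pairs as a fixed block in limma, 32 genes fell in knockout cells, where 17.9% of all genes fell, and 34 in wild-type cells, where 16.4% of all genes fell. Other settings gave fewer. Quantile normalisation once more gave 16 in knockout cells (11.2% of all genes) and 23 in wild-type cells (11.1%). A fit of only the arrays compared gave 19 (9.19%) and 25 (11.2%). The block added Mcm6, Orc1, Gins1, Lig1, Tk1, Uhrf1, Chaf1a, Chaf1b and Blm in knockout cells (adjusted p between 0.000995 for Lig1 and 0.0428 for Orc1) and Mcm6, Cdc6, Lig1, Chaf1b, Slbp and Brca1 in wild-type cells (between 0.000807 for Lig1 and 0.0222 for Brca1).

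The counts of calls depended on single arrays. In knockout cells the count of 23 was 12 without curdlan replicate 1 (where 7.99% of all genes fell), 8 without curdlan replicate 2 (5.88%), 13 without untreated replicate 1 (6.38%) and 9 without untreated replicate 3 (7.87%). Without both arrays of a replicate number it was 1 for replicate 1 (2.51%), 13 for replicate 2 (7.39%) and 15 for replicate 3 (9.57%), so calls were lost over all genes too. In wild-type cells the count of 28 was 17 without curdlan replicate 1 (7.44% of all genes), 18 without untreated replicate 2 (8.67%), 18 without both arrays of replicate 2 (5.88%) and 13 without both of replicate 3 (6.65%). The median over the 42 genes stayed between -0.50 and -0.31 in knockout cells and between -0.59 and -0.43 in wild-type cells when arrays or replicates were left out.

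Of the 9 genes of helicase loading, which encode ring subunits and their loaders, 6 fell in knockout cells and 5 in wild-type cells. The ring subunits Mcm2, Mcm3, Mcm4, Mcm5 and Mcm7 fell in both genotypes. Of the loaders Cdc6, Cdt1 and Orc1, only Cdc6 passed without a block, and only in knockout cells. Mcm7, a subunit of the MCM ring, gave 7.94, 7.94 and 8.21 in knockout cells with curdlan, against 8.74, 8.59 and 9.17 in untreated knockout cells. In wild-type cells it gave 8.15, 8.98 and 8.67 with curdlan, against 9.26, 9.67 and 9.44 untreated. In both genotypes the curdlan arrays lay below all untreated ones, and Mcm7 fell by 0.80 ± 0.20 in knockout cells (limma, adjusted p = 0.0162) and by 0.86 ± 0.20 in wild-type cells (adjusted p = 0.0114). The other called ring subunits Mcm2, Mcm3, Mcm4 and Mcm5 had effects between -0.49 and -0.68 in both genotypes, and Mcm6 had -0.38 and -0.43 (adjusted p = 0.0773 and 0.0594).

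Cdc6, the loader of the ring, was the member with the most negative interaction. It gave 6.27, 6.06 and 6.41 in knockout cells with curdlan, 6.55, 6.96 and 6.93 in wild-type cells with curdlan, 7.00, 6.76 and 7.41 in untreated knockout cells and 7.20, 7.36 and 7.28 in untreated wild-type cells. Curdlan arrays lay below untreated ones in each genotype. Cdc6 fell by 0.81 ± 0.16 in knockout cells (limma, adjusted p = 0.0049), while the value in wild-type cells was -0.47 ± 0.16 (adjusted p = 0.058, and 0.00318 with the pairs as a block). The difference between the genotypes' effects was -0.34 ± 0.22 (adjusted p = 1). Cdt1, the partner of Cdc6 that geminin holds back, hardly differed, with -0.06 ± 0.11 in knockout cells and -0.01 ± 0.11 in wild-type cells, and its arrays overlapped in both. Orc1, the largest subunit of the origin recognition complex, had -0.26 ± 0.13 and -0.22 ± 0.13.

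**Figure D2:**
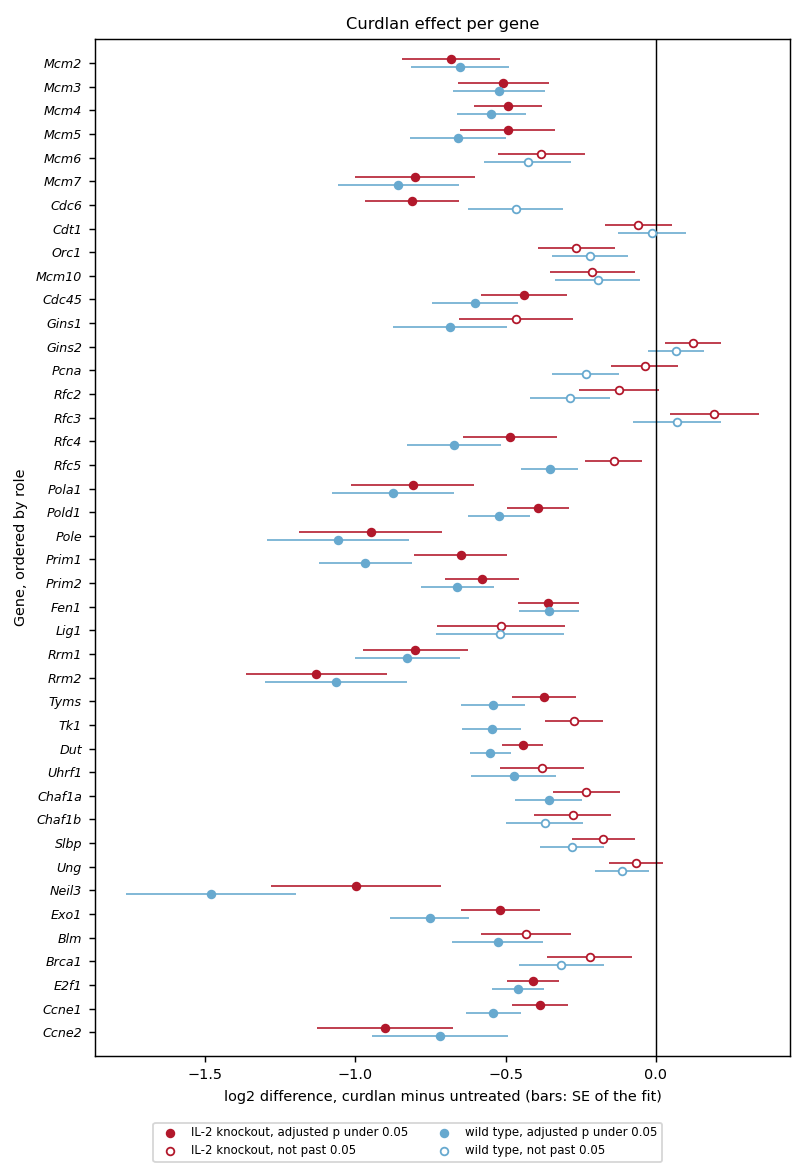
Points give each gene's log2 difference, curdlan minus untreated, in knockout cells (red) and wild-type cells (blue), with bars of 1 SE of the fit; filled points passed an adjusted p of 0.05. Of the 42 genes, 40 lie left of zero in each genotype, and the exceptions in both are Gins2 and Rfc3.

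Of the 4 genes that activate the helicase, Cdc45 fell in both genotypes and Gins1 in wild-type cells. Cdc45, which joins the ring and GINS in the moving helicase, fell by 0.44 ± 0.14 in knockout cells (limma, adjusted p = 0.048) and by 0.60 ± 0.14 in wild-type cells (adjusted p = 0.0128). Gins1 had -0.47 ± 0.19 in knockout cells (adjusted p = 0.0976, and 0.00187 with the block) and fell by 0.69 ± 0.19 in wild-type cells (adjusted p = 0.0262). Gins2, another subunit of the same complex, lay above zero: it gave 8.62, 8.90 and 8.69 in knockout cells with curdlan against 8.54, 8.58 and 8.71 untreated, and 8.70, 8.97 and 8.93 in wild-type cells with curdlan against 8.69, 8.87 and 8.83 untreated. Its groups overlapped and it did not pass the test (0.12 ± 0.09 and 0.07 ± 0.09). Mcm10, which helps to start the helicase, had -0.21 ± 0.14 and -0.19 ± 0.14.

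The clamp and most of its loader moved least. Of the 5 genes, Rfc4 fell in both genotypes, by 0.49 ± 0.16 in knockout cells (limma, adjusted p = 0.0448) and by 0.67 ± 0.16 in wild-type cells (adjusted p = 0.0111). Rfc5 fell in wild-type cells, by 0.35 ± 0.09 (adjusted p = 0.0225). Pcna, the sliding clamp, gave 12.39, 12.59 and 12.53 in knockout cells with curdlan, 12.55, 12.38 and 12.54 in wild-type cells with curdlan, 12.65, 12.29 and 12.68 in untreated knockout cells and 12.90, 12.68 and 12.59 in untreated wild-type cells. Wild-type arrays with curdlan lay just below the untreated ones and knockout arrays overlapped, and neither effect passed (-0.04 ± 0.11 and -0.23 ± 0.11). Its dimmer probe set did not pass either, at -0.15 ± 0.06 and -0.19 ± 0.06. Rfc3 gave 8.01, 8.66 and 8.08 in knockout cells with curdlan against 7.96, 7.99 and 8.22 untreated, with replicate 2 alone above the untreated arrays, a difference of 0.19 ± 0.15. In wild-type cells its difference was 0.07 ± 0.15.

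All 5 polymerase and primase genes fell in both genotypes. Pole, the catalytic subunit of the leading-strand polymerase, gave 6.36, 6.36 and 6.83 in knockout cells with curdlan against 7.39, 7.24 and 7.77 untreated. In wild-type cells it gave 6.76, 7.80 and 7.24 with curdlan against 8.12, 8.57 and 8.29 untreated. The treated arrays lay below the untreated ones in each genotype, by 0.95 ± 0.24 in knockout cells (limma, adjusted p = 0.0162) and 1.06 ± 0.24 in wild-type cells (adjusted p = 0.00924). Prim1, the catalytic subunit of primase, gave 6.22, 6.08 and 6.40 in knockout cells with curdlan, 6.60, 6.98 and 6.66 in wild-type cells with curdlan, 6.83, 6.61 and 7.21 in untreated knockout cells and 7.63, 7.92 and 7.60 in untreated wild-type cells. It fell by 0.65 ± 0.15 in knockout cells (adjusted p = 0.0132) and by 0.97 ± 0.15 in wild-type cells (adjusted p = 0.00153), with no overlap in either. Pola1, which extends the primers, fell by 0.81 and 0.87, Prim2, the other primase subunit, by 0.58 and 0.66, and Pold1, the lagging-strand polymerase, by 0.39 and 0.52.

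Fen1, the nuclease that trims Okazaki fragments, fell by 0.36 ± 0.10 in each genotype (limma, adjusted p = 0.0265 in knockout and 0.0279 in wild-type cells). Lig1, the ligase that seals them, had -0.52 ± 0.21 in both (adjusted p = 0.0987 and 0.116), which passed with the pairs as a block.

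Genes of nucleotide supply fell in nearly all cases, 4 of 5 in knockout and 5 of 5 in wild-type cells, and the arrays of all 5 were also separated by genotype in each treatment. Rrm2, the small subunit of ribonucleotide reductase, gave 7.94, 8.01 and 8.49 in knockout cells with curdlan, 8.75, 9.57 and 9.18 in wild-type cells with curdlan, 9.15, 9.02 and 9.66 in untreated knockout cells and 9.91, 10.50 and 10.29 in untreated wild-type cells. Treated arrays lay below untreated ones in each genotype, and knockout arrays below wild-type ones in each treatment. It fell by 1.13 ± 0.24 in knockout cells (2.19-fold; limma, adjusted p = 0.00714) and by 1.07 ± 0.24 in wild-type cells (2.09-fold; adjusted p = 0.00858). Rrm1, the large subunit, fell by 0.80 ± 0.17 and 0.83 ± 0.17. Dut, which removes dUTP, had smaller effects and the lowest adjusted p of the members: it fell by 0.44 ± 0.07 in knockout cells (adjusted p = 0.00146) and by 0.55 ± 0.07 in wild-type cells (adjusted p = 0.000312).

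Tyms, which makes thymidylate, gave 7.93, 7.83 and 7.74 in knockout cells with curdlan, 8.23, 8.62 and 8.47 in wild-type cells with curdlan, 8.26, 8.01 and 8.35 in untreated knockout cells and 8.91, 9.07 and 8.97 in untreated wild-type cells. Its groups were separated by genotype in each treatment and by treatment in each genotype. With curdlan it fell by 0.37 ± 0.11 in knockout cells (limma, adjusted p = 0.0295) and by 0.54 ± 0.11 in wild-type cells (adjusted p = 0.005). Tk1, the thymidine salvage kinase, had -0.27 ± 0.10 in knockout cells (adjusted p = 0.0644, and 0.0214 with the block) and fell by 0.55 ± 0.10 in wild-type cells (adjusted p = 0.00277). Its dimmer probe set gave -0.24 ± 0.19 and -0.77 ± 0.19.

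**Figure D3:**
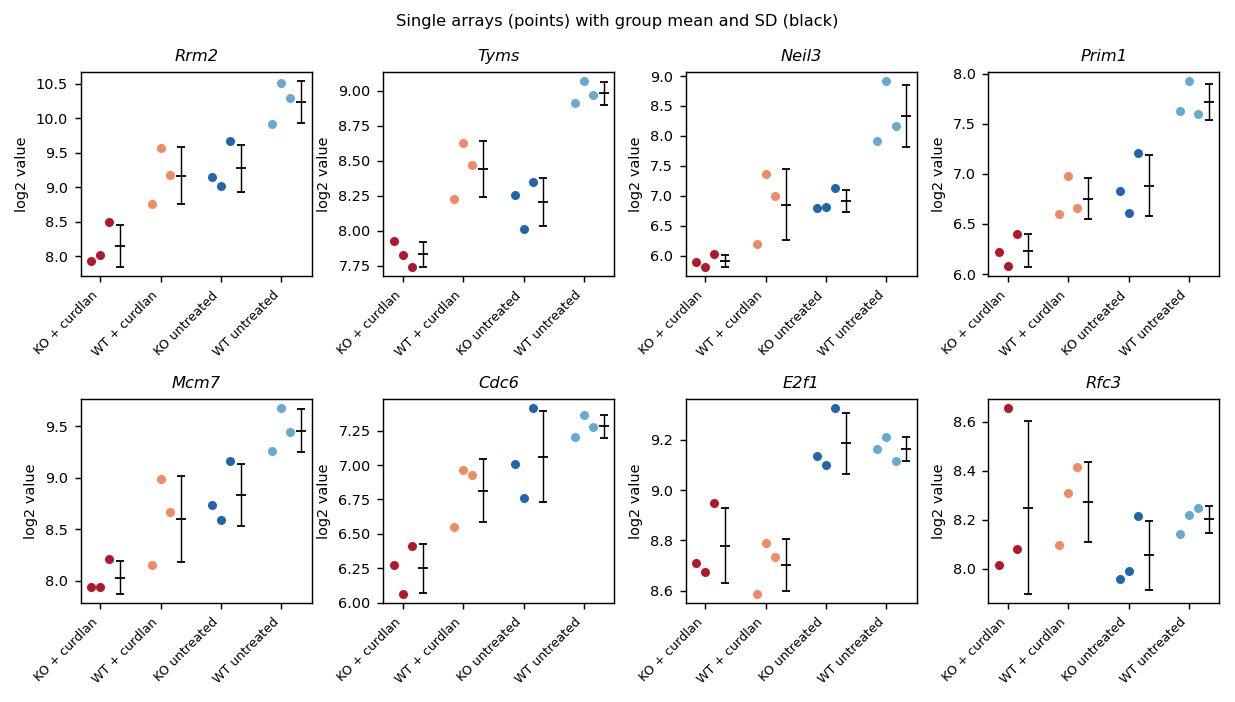
Points are single arrays of 8 members on the log2 scale, and black marks give the mean and SD of the 3 arrays of a group; each panel has its own axis. Rrm2, Tyms, Neil3 and Prim1 are lowest in knockout cells with curdlan and highest in untreated wild-type cells without overlap between those groups, E2f1 separates by treatment only, and Rfc3 overlaps throughout.

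Of the 4 chromatin genes 0 fell in knockout cells and 2 in wild-type cells at the adjusted threshold in limma. At an unadjusted p under 0.05, 1 of the 4 was lower in knockout cells, and with the pairs as a block Uhrf1, Chaf1a and Chaf1b passed in knockout cells. Uhrf1, which brings the maintenance DNA methyltransferase to newly copied DNA, had -0.38 ± 0.14 in knockout cells (limma, adjusted p = 0.072) and fell by 0.47 ± 0.14 in wild-type cells (adjusted p = 0.0346). Chaf1a, a subunit of the assembly factor that places histones behind the fork, had -0.23 ± 0.11 in knockout cells and fell by 0.36 ± 0.11 in wild-type cells (adjusted p = 0.0428). Slbp, which binds the stem-loop of histone messages, had -0.17 ± 0.11 and -0.28 ± 0.11 by the brighter probe set. Its dimmer probe set passed in both genotypes, at -0.32 ± 0.07 (adjusted p = 0.0111) and -0.27 ± 0.07 (adjusted p = 0.0262).

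Neil3 led the repair genes. This glycosylase, which removes oxidised bases and unhooks DNA crosslinks and is expressed in S phase, gave 5.90, 5.82 and 6.02 in knockout cells with curdlan, 6.19, 7.37 and 7.00 in wild-type cells with curdlan, 6.79, 6.82 and 7.13 in untreated knockout cells and 7.92, 8.91 and 8.17 in untreated wild-type cells. All 4 groups were apart except the groups in the middle, wild-type cells with curdlan and untreated knockout cells. It fell by 1.00 ± 0.28 in knockout cells (2-fold; limma, adjusted p = 0.0273) and by 1.48 ± 0.28 in wild-type cells (2.79-fold; adjusted p = 0.00397), where only 6 of the 19937 genes had a lower difference. Exo1, the exonuclease of mismatch repair, fell by 0.52 ± 0.13 (adjusted p = 0.018) and by 0.75 ± 0.13 (adjusted p = 0.00259). Blm, a helicase that resolves recombination intermediates, had -0.43 ± 0.15 in knockout cells (adjusted p = 0.0596) and fell by 0.53 ± 0.15 in wild-type cells (adjusted p = 0.0304). Brca1 had -0.22 ± 0.14 and -0.31 ± 0.14, and Ung, which cuts uracil out of DNA, had -0.06 ± 0.09 and -0.11 ± 0.09 with overlapping arrays.

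All 3 regulators of the G1/S step fell in both genotypes. E2f1, the transcription factor, gave 8.71, 8.67 and 8.95 in knockout cells with curdlan, 8.59, 8.79 and 8.73 in wild-type cells with curdlan, 9.13, 9.10 and 9.33 in untreated knockout cells and 9.16, 9.21 and 9.11 in untreated wild-type cells. Treatment separated the arrays in each genotype and genotype did not separate them in either treatment. E2f1 fell by 0.41 ± 0.09 in knockout cells (limma, adjusted p = 0.0077) and by 0.46 ± 0.09 in wild-type cells (adjusted p = 0.00372). Ccne1, a cyclin that drives entry into S phase, fell by 0.38 ± 0.09 and 0.54 ± 0.09 (adjusted p = 0.0137 and 0.00227), and its paralog Ccne2 by 0.90 ± 0.23 and 0.72 ± 0.23 (adjusted p = 0.0164 and 0.0446). Ccne2 gave 6.64, 6.95 and 7.47 in knockout cells with curdlan, 7.50, 8.10 and 7.88 in wild-type cells with curdlan, 7.79, 7.61 and 8.37 in untreated knockout cells and 8.57, 8.57 and 8.49 in untreated wild-type cells. Its treated arrays lay below the untreated ones in each genotype, and its knockout arrays below the wild-type ones in each treatment.

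Read gene by gene, 22 of the 42 genes fell in both genotypes, 6 passed in wild-type cells but not in knockout cells (Gins1, Rfc5, Tk1, Uhrf1, Chaf1a and Blm), 1 in knockout cells but not in wild-type cells (Cdc6) and 13 in neither. The difference between the genotypes was tested directly as the interaction, which is the effect in the knockout minus the effect in the wild type. At the adjusted threshold 0 of the 42 genes passed in limma, lower (0% of all genes) or higher (0% of all genes), 0 passed with a fixed or a random block, and 0 of the 42 had an unadjusted p under 0.05, against 552 of 19937 genes. The interaction was above zero for 34 of the 42 genes, so that the effect in wild-type cells was the lower one, and its median was 0.09 against 0.01 over all genes. It ran between -0.34 for Cdc6 and 0.48 ± 0.40 for Neil3, and the standard errors of the 42 interactions were between 0.10 and 0.40.

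The genotype comparison asks whether cells from knockout animals differ from wild-type cells at the same treatment. Knockout cells had lower values of the replication genes in both treatments, with few single genes past the threshold. With curdlan, 39 of the 42 differences were below zero with a median of -0.30, and untreated, 41 were below zero with a median of -0.41, where the medians of all genes were 0.02 and 0.01. With curdlan 1 gene fell and 0 rose (limma), where 0.517% of all genes fell and 0.105% rose, and 24 of the 42 were lower and 0 higher at an unadjusted p under 0.05, against 2306 of 19937 genes in either direction. Untreated, 7 fell and 0 rose, where 1.19% of all genes fell and 0.231% rose, and 30 of the 42 were lower and 0 higher at an unadjusted p under 0.05, against 2114 genes in either direction. The knockout arrays lay below all wild-type arrays for 16 genes with curdlan, against 6.84% of all genes, and for 28 genes untreated, against 7.88% of all genes. The untreated wild-type arrays, where the replication genes were highest, serve both in the untreated genotype comparison and in the curdlan effect of wild-type cells.

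**Figure D4:**
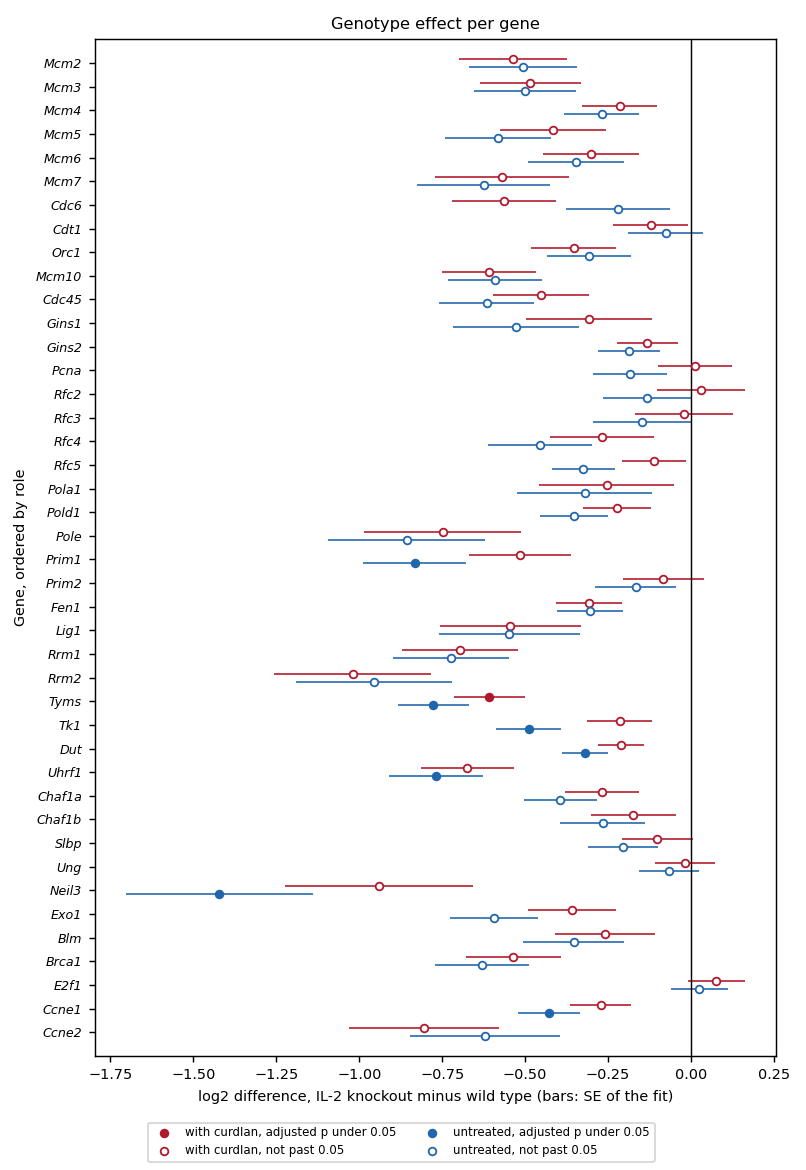
Points give each gene's log2 difference, knockout minus wild type, with curdlan (red) and untreated (blue), with bars of 1 SE of the fit; filled points passed an adjusted p of 0.05. With curdlan Tyms is filled, and untreated Prim1, Tyms, Tk1, Dut, Uhrf1, Neil3 and Ccne1 are; E2f1 lies just right of zero in both.

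Tyms was the gene that passed in both treatments. Knockout cells had it lower by 0.61 ± 0.11 with curdlan (limma, adjusted p = 0.0314) and by 0.78 ± 0.11 untreated (adjusted p = 0.00888). Neil3 fell in untreated knockout cells by 1.42 ± 0.28 (2.68-fold; adjusted p = 0.0337), Prim1 by 0.83 ± 0.15 (adjusted p = 0.0258), Tk1 by 0.49 ± 0.10 (adjusted p = 0.0337), Ccne1 by 0.43 ± 0.09 (adjusted p = 0.047) and Dut by 0.32 ± 0.07 (adjusted p = 0.046). Their arrays did not overlap between the genotypes in either treatment. With the untreated replicate numbers as a block, which correlated weakly, 7 genes fell where 1.95% of all genes did: Prim1 (adjusted p = 0.0552) and Dut (0.0671) no longer passed, and Mcm10 (0.0452) and Brca1 (0.0478) did. The dimmer Tk1 probe set gave -0.78 ± 0.19 untreated and did not pass (adjusted p = 0.0773).

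Uhrf1 gave 7.39, 7.44 and 7.54 in knockout cells with curdlan, against 7.84, 8.35 and 8.21 in wild-type cells with curdlan, and 7.81, 7.62 and 8.07 in untreated knockout cells, against 8.49, 8.80 and 8.52 in untreated wild-type cells. It was lower in knockout cells by 0.67 ± 0.14 with curdlan (limma, adjusted p = 0.0582) and fell by 0.77 ± 0.14 untreated (adjusted p = 0.0241), with no overlap in either. Ccne1 gave 8.93, 9.31 and 9.26 in knockout cells with curdlan, against 9.34, 9.45 and 9.52 in wild-type cells with curdlan, and 9.57, 9.54 and 9.53 in untreated knockout cells, against 9.94, 10.07 and 9.93 in untreated wild-type cells. Tk1 gave 7.15, 7.30 and 7.27 against 7.39, 7.65 and 7.33 in knockout and wild-type cells with curdlan, and 7.41, 7.45 and 7.68 against 7.89, 8.09 and 8.03 in untreated knockout and wild-type cells. Dut gave 7.03, 7.09 and 7.08 in knockout cells with curdlan, 7.21, 7.34 and 7.29 in wild-type cells with curdlan, 7.65, 7.40 and 7.48 in untreated knockout cells and 7.79, 7.90 and 7.80 in untreated wild-type cells. For these 4 genes the highest knockout array stayed below the lowest wild-type array within each treatment, narrowly so for Ccne1 and Tk1 with curdlan.

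Rrm2 had the largest genotype difference with curdlan, -1.02 ± 0.24, and -0.96 ± 0.24 untreated, and passed in neither (limma, adjusted p = 0.0865 and 0.0793). Averaged over both treatments, 22 of the 42 genes fell in knockout cells and 0 rose, where 3.56% of all genes fell and 1.48% rose. At an unadjusted p under 0.05, 33 of the 42 were lower and 0 higher, against 3329 of all genes in either direction. This average uses 6 arrays of each genotype and takes them as independent, although same-numbered arrays of a genotype deviated together. With those arrays as a random block, 20 genes fell (2.67% of all genes). With same-numbered arrays of a treatment as a fixed block, 25 fell (4.7%). In the limma fit without a block, Tyms had the lowest adjusted p (-0.69 ± 0.08, adjusted p = 0.000937), followed by Uhrf1 (-0.72 ± 0.10, 0.00227). All 5 nucleotide supply genes fell in this average, among them Rrm2 by 0.99 ± 0.17 (adjusted p = 0.00619) and Rrm1 by 0.71 ± 0.12 (0.00732). Neil3 fell by 1.18 ± 0.20 (0.00623).

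Some genes passed for genotype and not for curdlan, and others for curdlan and not for genotype. Mcm10, which did not pass for curdlan in either genotype, fell in the genotype average by 0.60 ± 0.10 (limma, adjusted p = 0.0059): it gave 7.06, 7.25 and 7.08 in knockout cells with curdlan, against 7.50, 7.97 and 7.75 in wild-type cells with curdlan, and 7.31, 7.13 and 7.59 in untreated knockout cells, against 7.72, 8.10 and 7.99 in untreated wild-type cells. Knockout and wild-type arrays did not overlap in either treatment, while treated and untreated arrays overlapped in each genotype. Brca1, likewise not past the threshold for curdlan, fell by 0.58 ± 0.10 in the average (adjusted p = 0.00709). E2f1 was the reverse, with a fall under curdlan and a genotype difference of 0.08 ± 0.09 with curdlan and 0.02 ± 0.09 untreated. Prim2 and Pola1, which fell with curdlan in both genotypes, had averaged genotype differences of -0.13 ± 0.09 and -0.29 ± 0.14 that did not pass (adjusted p = 0.546 and 0.359).

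The genotype counts also rested on few arrays. With curdlan, where 0.517% of all genes fell, the single call was lost without any 1 of the 3 knockout curdlan arrays, without wild-type curdlan replicate 2 or 3 and without untreated wild-type replicate 3 (between 0.0652% and 0.331% of all genes). There were 5 calls without wild-type curdlan replicate 1 (0.717%) and 2 without untreated knockout replicate 3 (0.482%). Without both arrays of a number there were 0 calls for knockout replicates 1 and 2 and wild-type replicates 2 and 3 (between 0.0752% and 0.216%), and 6 for wild-type replicate 1 (1.17%). Untreated, where 1.19% of all genes fell, the count of 7 was 4 without knockout curdlan replicate 1 (0.732%) or wild-type curdlan replicate 3 (0.878%), 2 without untreated knockout replicate 1 (0.451%), and 1 without untreated knockout replicate 2 (0.341%) or untreated wild-type replicate 2 (0.226%) or 3 (0.622%). Without both arrays of a number it was 1 and 0 for knockout replicates 1 and 2 (0.231% and 0.0351%), and 14, 2 and 1 for wild-type replicates 1, 2 and 3 (2.27%, 0.577% and 0.351%). For the average, where 3.56% of all genes fell, the count of 22 was 13 without untreated wild-type replicate 2 (2.32%) and 14 without knockout curdlan replicate 1, wild-type curdlan replicate 2 or 3, untreated knockout replicate 1 or 2, or untreated wild-type replicate 3 (between 2.13% and 2.74%). Without both arrays of a number it was 8 and 10 for knockout replicates 1 and 2 (1.9% and 2.1%) and 7 and 10 for wild-type replicates 2 and 3 (1.43% and 1.94%).

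Genes of the same processes outside the 42 were also counted, to be read against the 13.2% of all genes that fell and 9.29% that rose with curdlan in knockout cells, and the 12.3% and 7.27% in wild-type cells. Of 42 further replication genes, 23 fell and 1 rose with curdlan in knockout cells and 24 fell and 3 rose in wild-type cells (limma). Top2a, the topoisomerase that untangles copied DNA, fell by 1.16 ± 0.24 and 1.10 ± 0.24 with curdlan, and was lower in knockout cells by 1.27 ± 0.24 with curdlan (adjusted p = 0.0426) and 1.21 ± 0.24 untreated (adjusted p = 0.0352). Of 16 further genes of nucleotide supply, 9 fell and 2 rose in knockout cells and 12 fell and 2 rose in wild-type cells. Dck, which salvages deoxycytidine, rose by 0.94 ± 0.12 and 1.05 ± 0.12, against the direction of Tyms, Tk1 and Rrm2. Of 22 repair genes linked to replication, 10 fell in knockout and 17 in wild-type cells, and 0 rose in either. Of 14 chromatin genes, 4 fell and 1 rose in knockout cells and 7 fell and 1 rose in wild-type cells. Of 25 genes of E2F, Rb and the G1/S step, 12 fell and 1 rose in knockout cells and 10 fell and 0 rose in wild-type cells. Among them Ccna2, the cyclin of S phase and G2, fell by 1.31 ± 0.22 and 1.15 ± 0.22, and Cdkn2c, an inhibitor of the G1 kinases, by 0.76 ± 0.24 and 1.16 ± 0.24.

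Mitosis genes gave larger differences than the replication genes in the same arrays. Of 29 mitosis genes, 17 fell with curdlan in knockout cells and 28 in wild-type cells, where 13.2% and 12.3% of all genes fell, with medians of -0.70 and -1.08, against -0.42 and -0.52 for the replication genes. Untreated knockout cells had 22 of the 29 lower than wild-type cells with a median of -1.16, where 1.19% of all genes were, and with curdlan 2 with a median of -0.65, where 0.517% were. The mean of the mitosis genes was 7.00 in knockout cells with curdlan, 7.77 in wild-type cells with curdlan, 7.70 in untreated knockout cells and 8.82 in untreated wild-type cells, the same order of the extremes as for the replication genes. Whether the lists differ was not tested, since genes of a list share arrays and are not replicates.

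**Figure D5:**
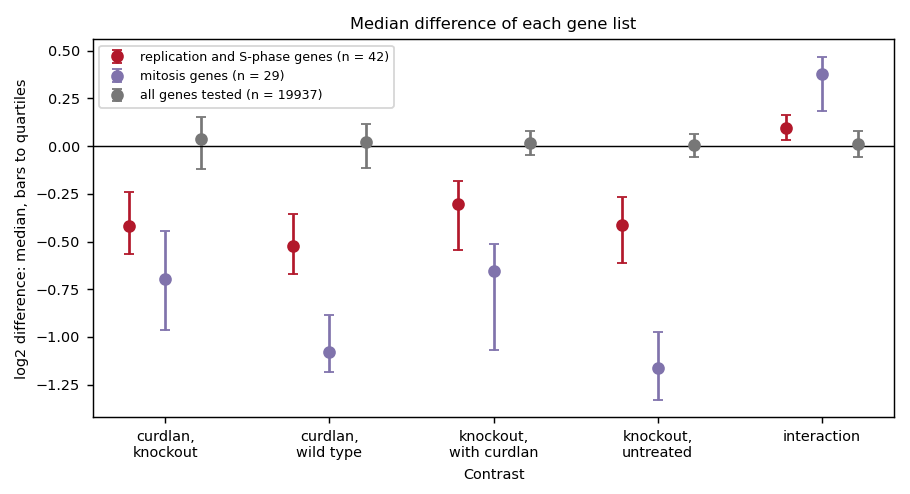
Points give the median log2 difference of the 42 replication genes (red), 29 mitosis genes (purple) and all 19937 genes (grey) in 5 contrasts, with bars to the quartiles over genes. The replication genes lie between the mitosis genes and all genes in each of the 5 contrasts.

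Markers of other cells were looked at beside these differences. The mean of 10 myeloid precursor genes followed genotype: it was 6.36 to 6.47 in knockout cells with curdlan, 6.68 to 6.70 in wild-type cells with curdlan, 6.37 to 6.47 in untreated knockout cells and 6.70 to 6.75 in untreated wild-type cells. Of the 10, 2 fell in the genotype average (limma), where 3.56% of all genes fell: Cd34 by 1.42 ± 0.24 and Kit by 0.54 ± 0.13. The granule genes Mpo and Elane were between 5.56 and 6.48 on all arrays and did not pass. Cd34 gave 7.93, 6.67 and 7.57 in knockout cells with curdlan and 8.93, 7.62 and 8.33 in untreated knockout cells. In wild-type cells it gave 8.73, 8.83 and 8.60 with curdlan and 9.99, 10.02 and 9.42 untreated. It was lowest in knockout cells with curdlan and highest in untreated wild-type cells, as the replication genes were. The mean of the 10 precursor genes did not have that order. It was 6.43 with curdlan and 6.42 untreated in knockout cells, and 6.69 and 6.73 in wild-type cells. The curdlan effect of Cd34 was -0.90 ± 0.34 in knockout cells, and Cd34 fell by 1.09 ± 0.34 in wild-type cells (limma, adjusted p = 0.0428). The mean of 10 dendritic cell genes was 10.43 to 10.56 in knockout cells with curdlan, 10.71 to 10.74 in wild-type cells with curdlan, 10.46 to 10.55 in untreated knockout cells and 10.78 to 10.93 in untreated wild-type cells, and of the 10 Cd209a fell in every comparison of genotype and of curdlan. Markers of T, B, NK and mast cells had list means between 4.41 and 5.76 on every array.

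Some marker lists had higher means with curdlan. Their counts are to be read against all genes, of which 9.29% rose and 13.2% fell in knockout cells, and 7.27% rose and 12.3% fell in wild-type cells. The mean of 5 plasmacytoid dendritic cell genes was 7.61 to 7.81 in knockout cells with curdlan, 7.61 to 7.75 in wild-type cells with curdlan, 7.24 to 7.37 in untreated knockout cells and 7.20 to 7.22 in untreated wild-type cells. Of the 5, 3 rose in knockout cells and 2 in wild-type cells (limma): Bst2 by 0.93 ± 0.16 and 1.25 ± 0.16, Tcf4 by 0.80 ± 0.09 and 0.87 ± 0.09, and Ccr9 in knockout cells by 0.30 ± 0.08, while the defining gene Siglech was between 5.80 and 6.05 on all arrays and did not pass. The mean of 8 genes of stroma and endothelium was 6.71 to 7.02 in knockout cells with curdlan, 6.76 to 6.99 in wild-type cells with curdlan, 6.41 to 6.67 in untreated knockout cells and 6.43 to 6.60 in untreated wild-type cells, where 3 and 2 of the 8 rose: Kdr by 1.54 ± 0.36 and 1.70 ± 0.36, Cdh5 by 0.57 ± 0.11 and 0.66 ± 0.11, and Col1a2 in knockout cells by 0.31 ± 0.10. The mean of 3 monocyte genes was 8.90 to 10.17 in knockout cells with curdlan, 9.20 to 9.73 in wild-type cells with curdlan, 8.14 to 9.07 in untreated knockout cells and 8.36 to 8.97 in untreated wild-type cells, and the knockout ranges overlapped. Of these, Ms4a4c rose by 3.74 ± 0.31 and 2.69 ± 0.31, Ccr2 fell by 0.84 ± 0.12 and 0.56 ± 0.12, and F13a1 did not pass. The mean of 5 stem cell genes was 7.35 to 7.42 in knockout cells with curdlan, 7.41 to 7.52 in wild-type cells with curdlan, 7.17 to 7.26 in untreated knockout cells and 7.25 to 7.40 in untreated wild-type cells, where Procr rose by 1.10 ± 0.12 and 1.30 ± 0.12, Meis1 fell by 0.40 ± 0.12 and 0.44 ± 0.12, and the other 3 did not pass. The part of the content of these cells, precursors or dendritic cells in the differences of the replication genes was not tested.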

How the data were processed

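RNA was measured on 12 arrays, 1 per sample. The authors made the log2 values with RMA, per the submitters' processing notes; not given in the sources used here were its version and the genome build of the probes. RMA brings the arrays' distributions close together, so values are relative to the rest of each array. The distributions were not identical in the values used: over the genes tested, the arrays' lower quartiles ran from 5.30 to 5.49. Of 34760 probe sets, 21640 had exactly 1 symbol, which gave 19937 genes (highest mean where a gene had several); 0 further sample columns were present.

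Group means (4 groups) were fitted with limma 3.58.1 in R 4.3.3 (8 residual degrees of freedom, two-sided), with Benjamini-Hochberg adjustment over all genes within each of 6 contrasts and a threshold of 0.05. SE is that of the fit. Same-numbered arrays, after removal of group means, correlated over all genes at 0.49, 0.53 and 0.60 in knockout cells, 0.45, 0.37 and 0.40 in wild-type cells, 0.22, 0.11 and 0.25 between untreated genotypes, and 0.17, -0.13 and 0.33 between curdlan-treated ones. Some values with a block are therefore quoted beside the main ones for the curdlan effects, the untreated genotype comparison and the genotype average. For genotype with curdlan the blocks were run only as alternatives. The fixed block joined same-numbered arrays of a genotype for curdlan effects and the interaction, and same-numbered arrays of a treatment for genotype effects. The random block joined same-numbered arrays of a genotype in every contrast. Alternatives were blocks, other normalisations, a dim-gene filter, probe set choice, array weights, the spread model and leaving out arrays or replicates.

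All members and Il2 are named by rule; of other lists, up to 4 called genes with the largest change per contrast. Markers and the dimmer probe sets were named after their values were seen. The members and lists were chosen with earlier results of these data known. Of 259 listed genes, 239 were tested. Scripts were tested on simulated data. Promoters are RefSeq's.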

Additional observations from a re-analysis of the deposited data

How the results depend on the processing

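The 42 replication genes were recomputed under 28 alternatives (27 for the genotype average and the interaction, for which only the arrays compared was not run apart, since they use all arrays), of which the dimmer probe sets of Pcna, Slbp and Tk1 were chosen after seeing the data. No call of a single gene in the text reversed. With the count of genes that fell, leaving out arrays or replicates gave 1 to 27 for curdlan in knockout cells, 13 to 31 for curdlan in wild-type cells, 0 to 6 for genotype with curdlan, 0 to 14 for genotype untreated and 7 to 32 for the genotype average. The median interaction ran between -0.03 and 0.19. For curdlan, the alternatives that left out no array or replicate gave 16 to 32 in knockout cells, against 23, and 23 to 34 in wild-type cells, against 28. The lowest counts came with quantile normalisation (11.2% and 11.1% of all genes) and the highest with the fixed block (17.9% and 16.4%). For genotype with curdlan, against 1, the count was 0 with the fixed replicate block (1.1% of all genes), 0 with only the arrays compared (0.0652%), 2 with the random block (0.707% of all genes), 2 with quantile normalisation (0.482%), 2 with the trend and robust spread (0.682%) and 26 with array weights, whose median was -0.50, where 4.42% of all genes fell against 0.517%. For genotype untreated, against 7, it was 12 with the random block (1.61%), 2 with only the arrays compared (0.301%), 4 with centred arrays (0.873%), 3 with quantile normalisation (0.908%) and 13 with array weights (2.27% of all genes against 1.19%). Array weights also gave 35 for the genotype average, against 22 (6.55% of all genes against 3.56%), and turned the median interaction to -0.082, against 0.094. The cause of these shifts was not tested. Of the calls, 1 of 23 (Dut) for curdlan in knockout cells, 12 of 28 in wild-type cells, 0 of 1 and 0 of 7 for genotype and 6 of 22 for the genotype average (Mcm10, Prim1, Rrm2, Tyms, Uhrf1 and Neil3) passed under every alternative run for that contrast. The count of genes that rose was 0 in every contrast under the alternatives run for it.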
